A study of Homo sapiens with 12 samples.

Results

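Laminins are the heterotrimeric glycoproteins of basement membranes, each built of an alpha, a beta and a gamma chain. The trimers are named by their chains, so that laminin-332 contains the products of LAMA3 and LAMB3, laminin-511 those of LAMA5, LAMB1 and LAMC1, and laminin-411 those of LAMA4, LAMB1 and LAMC1. Laminin-332 anchors epithelial cells through hemidesmosomes, laminin-511 is the widespread laminin of adult epithelia and vessels, and laminin-411 is best known from vessel walls. Carcinoma cells both secrete laminins and bind them through integrins. Of 8 laminin chain genes considered, LAMA1, LAMA3, LAMA4, LAMA5, LAMB1, LAMB2, LAMB3 and LAMC1, 7 had at least 1 probe set annotated to that gene alone. These 7 genes were read on all of their 14 probe sets, of 54613 probe sets tested. LAMA3 had no probe set with that annotation and was not analysed here, so laminin-332 was read on LAMB3.

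RNA of MDA-MB-231, a human cell line of metastatic breast cancer, was read on 12 expression arrays, with 4 replicates (A to D) in each of 3 groups. Sharp1 cells overexpressed Sharp1, a transcriptional repressor encoded by BHLHE41. The shHIF cells carried a retroviral hairpin construct against HIF1a and HIF2a, the oxygen-regulated alpha subunits of the hypoxia-inducible factors. The shGFP cells, the control of both, carried a retroviral hairpin against GFP. All were cultured under normal conditions without treatment. No source used here gives the vector of the Sharp1 cells, an empty-vector control or the number of clones behind a line. The replicates are called biological without saying whether they were separate cultures, and the p-values cover no more than the spread among the arrays of a group.

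All values are log2 signals, a difference of 1 being a doubling, and a probe set was called at a limma adjusted p under 0.05 over all probe sets. Array medians lay between 5.39 and 5.44. EPAS1, the HIF2a gene, fell by 2.85 in shHIF cells against shGFP cells on its brightest probe set, HIF1A fell by 0.73, and EPAS1 also fell by 0.71 in Sharp1 cells. BHLHE41 has 4 probe sets, which in Sharp1 cells differed by 5.35, 1.59, -0.12 and -2.06 from shGFP cells, the first pair called higher and the last called lower. Of 5 markers expected in MDA-MB-231 cells, 0 lay below the median probe set (5.41). Of 5 expected to be absent, PGR and CDH1 lay below it in every group, while EPCAM read 8.92 in Sharp1, 9.20 in shHIF and 9.54 in shGFP cells. The other two of these markers also lay above it, ESR1 at 6.29, 6.46 and 6.27 and ERBB3 at 7.20, 5.70 and 6.89 in the same groups. Averaged over 6 endothelial markers, arrays read 4.66 to 4.76 in Sharp1, 4.79 to 4.96 in shHIF and 4.72 to 4.89 in shGFP cells, and over 8 fibroblast markers 5.02 to 5.27, 5.13 to 5.28 and 4.98 to 5.09 in the same order of groups. In a bulk sample, fewer expressing cells and less RNA per cell cannot be told apart.

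The called chains differed in part between the lines, which shared a fall of LAMA5 and moved LAMB2 in opposite directions. In Sharp1 cells the alpha chains LAMA5 and LAMA4 fell and the gamma chain LAMC1 rose, each on its brightest probe set, and LAMB2 rose by less. In shHIF cells LAMA5, LAMB1 and LAMB2 fell, and LAMC1 rose on its dimmer probe set. LAMB3, the laminin-332 chain, was called in neither. Of the 14 probe sets, 4 were called in Sharp1 against shGFP cells, 2 higher and 2 lower, where 18.1% of all probe sets were called (9.82% higher and 8.26% lower). In shHIF against shGFP cells 5 were called, 1 higher and 4 lower, against 22.2% of all probe sets (10.7% higher and 11.5% lower). In Sharp1 against shHIF cells 6 were called, 3 higher and 3 lower, against 29.1% (15.3% higher and 13.8% lower). The median difference over the 14 was -0.07, 0.07 and -0.07 in these 3 comparisons, and -0.01, 0.02 and -0.04 over all probe sets. Both comparisons with shGFP use the same 4 control arrays.

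The calls lay among the brighter probe sets. Of the 14, 8 had a mean at or above the median probe set and held every call, and the 6 dimmer ones had 0 calls in any comparison (limma) and 0 with wholly separate groups. At an unadjusted p under 0.05, 2 of their 18 differences passed, both in Sharp1 against shHIF cells. Over all probe sets, bright and dim, groups were wholly separate for 21.6% in Sharp1 against shGFP cells. The shares were 22.3% in shHIF against shGFP cells and 28% in Sharp1 against shHIF cells. Shares among dim probe sets alone were not analysed here, so the counts of 0 are not read as a trait of laminins. Among all probe sets at or above the median, 31.7% were called in Sharp1 against shGFP cells, 37.7% in shHIF against shGFP cells and 48.0% in Sharp1 against shHIF cells, beside 4, 5 and 6 of the 8 laminin probe sets.

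**Figure D1:**
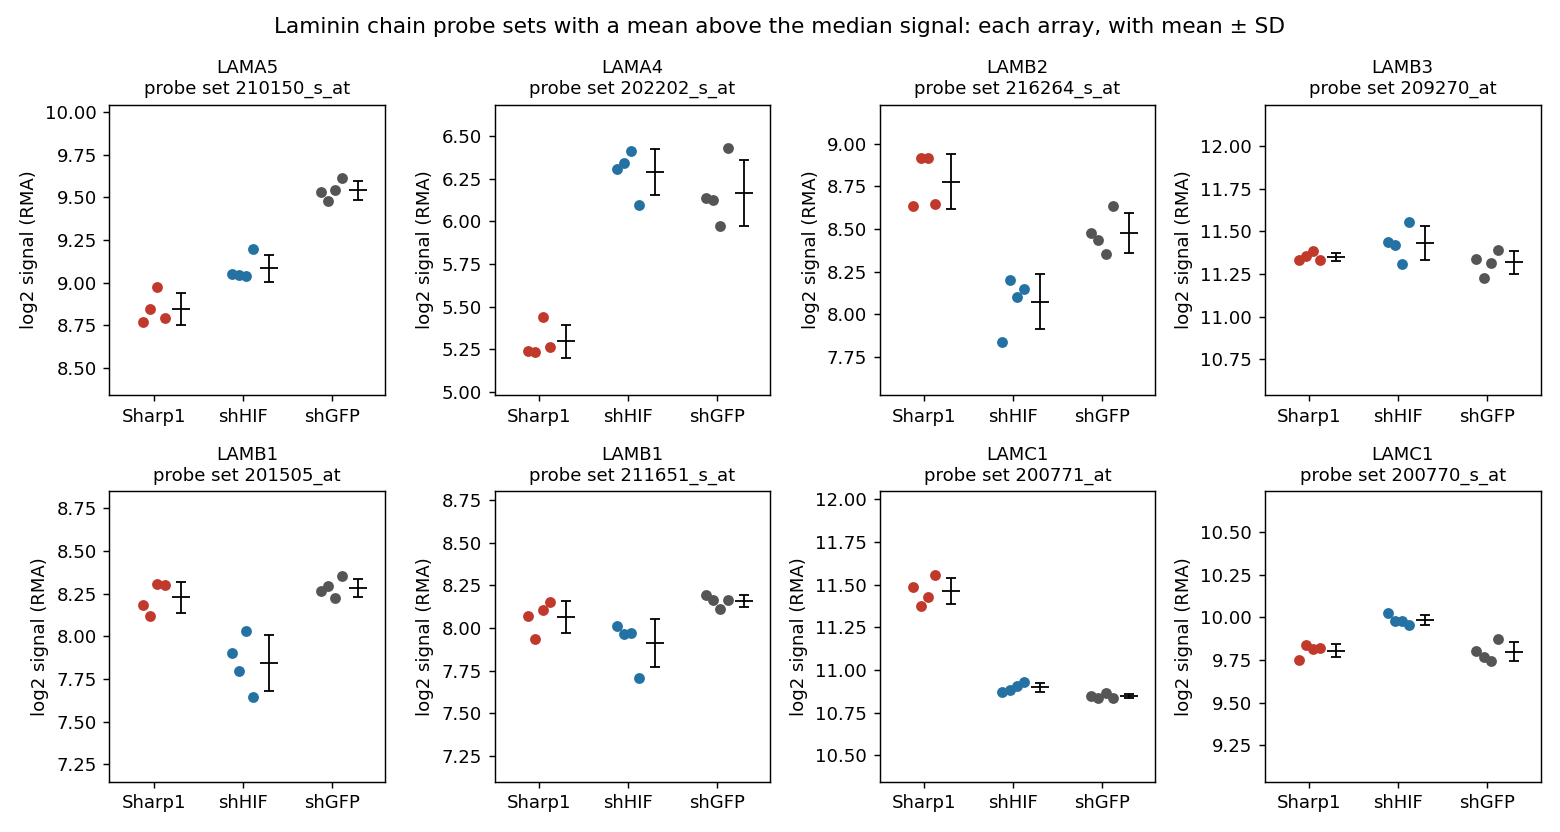
Log2 signal (y axis, RMA, a span of the same height in each panel) of the 8 laminin probe sets with a mean above the median probe set, with 1 point per array in Sharp1, shHIF and shGFP cells and the mean ± SD of 4 arrays beside it. LAMA5 lies highest in shGFP cells, LAMA4 is low in Sharp1 cells, LAMB1 and LAMB2 are low in shHIF cells, and LAMC1 is high in Sharp1 cells on probe set 200771_at but not on 200770_s_at.

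The sequences just before the transcription starts are shown for LAMA5, LAMB1 and LAMB2, the chains that fell together in shHIF cells, and for the LAMB3 start with an AP-1 match, as a bright chain that was not called. They are RefSeq sequences of build GRCh38.p14, 250 bases each, 5′ to 3′ on the strand of the gene. Capitals mark GGGCGG, the GC box bound by Sp factors, and TGANTCA, the element bound by AP-1, on either strand.
LAMA5, chr20:62367313-62367562, minus strand: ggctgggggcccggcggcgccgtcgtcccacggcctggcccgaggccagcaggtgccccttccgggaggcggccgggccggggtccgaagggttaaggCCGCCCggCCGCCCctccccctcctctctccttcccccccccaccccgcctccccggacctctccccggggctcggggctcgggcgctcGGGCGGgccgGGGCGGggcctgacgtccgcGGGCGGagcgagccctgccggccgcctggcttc
LAMB1, chr7:108003162-108003411, minus strand: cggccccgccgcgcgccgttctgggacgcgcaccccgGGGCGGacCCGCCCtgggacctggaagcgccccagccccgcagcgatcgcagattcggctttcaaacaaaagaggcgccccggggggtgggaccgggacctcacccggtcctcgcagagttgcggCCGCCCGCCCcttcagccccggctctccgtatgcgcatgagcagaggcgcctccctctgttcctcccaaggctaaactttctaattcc
LAMB2, chr3:49133051-49133300, minus strand: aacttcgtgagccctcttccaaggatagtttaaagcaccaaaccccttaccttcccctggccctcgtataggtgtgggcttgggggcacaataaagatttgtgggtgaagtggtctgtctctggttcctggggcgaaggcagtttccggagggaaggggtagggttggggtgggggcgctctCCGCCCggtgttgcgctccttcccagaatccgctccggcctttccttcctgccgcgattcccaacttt
LAMB3, chr1:209651375-209651624, minus strand: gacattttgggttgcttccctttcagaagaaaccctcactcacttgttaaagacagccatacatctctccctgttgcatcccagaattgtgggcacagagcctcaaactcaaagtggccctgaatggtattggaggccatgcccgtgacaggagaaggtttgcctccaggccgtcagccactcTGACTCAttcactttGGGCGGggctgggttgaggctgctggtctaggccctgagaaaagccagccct

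LAMA5 held 5 GC boxes and was 82.8% G or C, LAMB1 held 4 at 70.4%, and LAMB2 held 1 at 58.4%. A pair of the LAMB1 boxes overlaps and is marked as 1 stretch. The LAMB3 sequence, before 1 of its 3 listed starts, held 1 GC box and 1 AP-1 element at 54.0%. The other LAMB3 starts had 1 GC box and 0 AP-1 elements each, at 64% and 60%. The windows of these other starts overlap and share the same GC box. Of chains not called lower in shHIF cells, LAMC1 held 3 GC boxes at 79.6% and LAMA4 held 0 at 48.4%. LAMA3, whose signal was not analysed here, held 1 GC box and 2 AP-1 elements at 60.4%. Of 35116 promoters of this length, 42.6% held a GC box and 6.57% an AP-1 element. The E-box CACGTG, which Sharp proteins can bind, and ACGTG or GCGTG, the core of HIF response elements, were also searched on both strands; the first contains ACGTG. They occurred in 6.34% and 43.2% of all promoters, and in 0 of the 9 listed promoters of LAMA3, LAMA4, LAMA5, LAMB1, LAMB2, LAMB3 and LAMC1. LAMA1 had no promoter among those searched. The search of laminin promoters left out 1 chromosome that the shares over all promoters kept. The windows are short, and a missing match says nothing of sites elsewhere.

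The laminin-332 chain LAMB3 was bright and nearly level. It read 11.33, 11.35, 11.38 and 11.34 in Sharp1 cells, 11.44, 11.42, 11.31 and 11.56 in shHIF cells and 11.34, 11.23, 11.32 and 11.39 in shGFP cells. All 3 groups overlapped. Sharp1 cells differed from shGFP cells by 0.03 (95% interval -0.06 to 0.13, adjusted p = 0.738). The shHIF cells differed by 0.11 (0.02 to 0.21, adjusted p = 0.0814), which passed without shHIF C (0.0114) or shGFP D (0.0462). Sharp1 against shHIF cells gave -0.08 (-0.17 to 0.01, adjusted p = 0.206), which passed without shHIF C (0.0383).

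LAMA5, the alpha chain of laminin-511, fell in both lines. It read 8.77, 8.85, 8.97 and 8.79 in Sharp1 cells, 9.05, 9.05, 9.04 and 9.20 in shHIF cells and 9.53, 9.48, 9.54 and 9.61 in shGFP cells. Every Sharp1 array lay below every shHIF array, and every shHIF array below every shGFP array. In Sharp1 cells the signal was 61.8% of that in shGFP cells (log2 -0.70, SE 0.06, adjusted p = 1.28e-09). In shHIF cells it was 72.8% (log2 -0.46, SE 0.06, adjusted p = 1.36e-06). The direct difference of Sharp1 against shHIF cells was -0.24 (SE 0.06, adjusted p = 0.00210).

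LAMA4, the alpha chain of laminin-411, fell in Sharp1 cells on its brightest probe set, 202202_s_at. That probe set read 5.24, 5.24, 5.44 and 5.27 in Sharp1 cells, 6.30, 6.34, 6.41 and 6.10 in shHIF cells and 6.14, 6.13, 5.97 and 6.43 in shGFP cells. The Sharp1 arrays lay wholly below both other groups, which overlapped each other. The Sharp1 signal was 54.7% of that in shGFP cells (log2 -0.87, SE 0.10, adjusted p = 4.72e-07). In shHIF cells the difference was 0.12 (95% interval -0.09 to 0.33, adjusted p = 0.449), and Sharp1 against shHIF cells gave -0.99 (SE 0.10, adjusted p = 2.98e-08). The mean of 5.30 in Sharp1 cells was under that of the median probe set, and the size of the fall rests on dim readings.

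The other LAMA4 probe sets, 4 in number, all had means under the median probe set and were not called. Their means in Sharp1, shHIF and shGFP cells were 4.79, 5.08 and 4.88 for 210089_s_at, 5.28, 5.50 and 5.42 for 210990_s_at, 3.77, 3.81 and 3.91 for 216081_at, and 3.17, 3.20 and 3.04 for 210989_at. Sharp1 minus shGFP was -0.09, -0.14, -0.14 and 0.13 on them. As the mean of all 5 probe sets, the LAMA4 fall in Sharp1 cells was -0.22 against shGFP cells (limma adjusted p = 0.00723) and -0.32 against shHIF cells (limma adjusted p = 0.000261), so its size depends on the probe set read. On 210089_s_at, Sharp1 minus shHIF was -0.29 (adjusted p = 0.0533). Across 19 alternatives that p lay between 0.00734 and 0.183 and passed in 6.

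LAMB1, the beta chain that laminin-411 and laminin-511 share, fell in shHIF cells on both of its probe sets. The brighter, 201505_at, read 8.18, 8.12, 8.31 and 8.30 in Sharp1 cells, 7.90, 7.79, 8.03 and 7.64 in shHIF cells and 8.27, 8.30, 8.23 and 8.35 in shGFP cells. The shHIF arrays lay wholly below both other groups. The shHIF signal was 73.7% of that in shGFP cells (log2 -0.44, SE 0.07, adjusted p = 6.84e-05). In Sharp1 cells the difference was -0.06 (95% interval -0.21 to 0.09, adjusted p = 0.709), and Sharp1 cells exceeded shHIF cells by 0.38 (SE 0.07, adjusted p = 0.000214).

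The other LAMB1 probe set, 211651_s_at, read 8.01, 7.96, 7.97 and 7.70 in shHIF cells, against 8.20, 8.16, 8.11 and 8.16 in shGFP cells. The groups did not overlap. The fall of 211651_s_at was -0.25 (SE 0.07, adjusted p = 0.0120), and its call was lost without shHIF D (-0.18, adjusted p = 0.0583) or without shHIF A and D (-0.19, adjusted p = 0.0741). In Sharp1 cells its difference from shGFP cells was -0.09 (adjusted p = 0.451).

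LAMC1, the gamma chain common to most laminins, gave different readings on its 2 probe sets. On 200771_at it read 11.49, 11.37, 11.43 and 11.55 in Sharp1 cells, 10.87, 10.88, 10.91 and 10.93 in shHIF cells and 10.85, 10.84, 10.86 and 10.84 in shGFP cells. The Sharp1 arrays stood wholly above the rest. Sharp1 signal was 1.53-fold that of shGFP cells (log2 0.62, SE 0.04, adjusted p = 2.25e-11) and 1.48-fold that of shHIF cells (log2 0.56, SE 0.04, adjusted p = 6.30e-11). The shHIF cells differed from shGFP cells by 0.05 (95% interval -0.03 to 0.13, adjusted p = 0.417), although their arrays did not overlap.

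On 200770_s_at, LAMC1 read 9.75, 9.84, 9.81 and 9.82 in Sharp1 cells, 10.03, 9.98, 9.98 and 9.96 in shHIF cells and 9.80, 9.77, 9.75 and 9.88 in shGFP cells. Here the shHIF arrays stood above both other groups. Sharp1 cells differed from shGFP cells by 0.01 (95% interval -0.09 to 0.10, adjusted p = 0.951). The shHIF cells were higher by 0.19 (SE 0.04, adjusted p = 0.00309), and Sharp1 minus shHIF was -0.18 (SE 0.04, adjusted p = 0.00311), the opposite sign to 200771_at.

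The gap between the LAMC1 probe sets within an array, a measure chosen after the values were seen, was 1.66 ± 0.10 in Sharp1 cells, 0.91 ± 0.05 in shHIF cells and 1.05 ± 0.07 in shGFP cells (SD, n = 4). The Sharp1 arrays had the widest gaps. As the mean of both probe sets, LAMC1 in Sharp1 cells was higher by 0.31 (limma adjusted p = 5.43e-07) and in shHIF cells by 0.12 (limma adjusted p = 0.00698), and Sharp1 minus shHIF was 0.19 (limma adjusted p = 7.92e-05). Which part of the transcript each probe set reads was not analysed here.

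LAMB2, the beta chain that replaces beta1 in the laminins of the kidney filter and the neuromuscular junction, moved in opposite directions in the 2 lines. It read 8.63, 8.92, 8.91 and 8.64 in Sharp1 cells, 7.84, 8.20, 8.10 and 8.15 in shHIF cells and 8.48, 8.44, 8.35 and 8.63 in shGFP cells. The shHIF arrays lay wholly below the others, while the lowest Sharp1 array overlapped the highest shGFP array. The shHIF signal was 75.7% of that in shGFP cells (log2 -0.40, SE 0.08, adjusted p = 0.000754). In Sharp1 cells LAMB2 rose by 0.30 (SE 0.08, adjusted p = 0.0108), a call lost without Sharp1 C (adjusted p = 0.0567) or shGFP C (0.0538). Sharp1 against shHIF cells differed by 0.70, or 1.63-fold (SE 0.08, adjusted p = 3.05e-07).

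LAMA1, the alpha chain of the embryonic laminin, read below the median probe set on both of its probe sets. On 222346_at the arrays spanned 4.62 to 4.89 in Sharp1, 4.61 to 4.92 in shHIF and 4.52 to 4.82 in shGFP cells. On 227048_at they spanned 3.74 to 4.27, 3.97 to 4.22 and 3.78 to 4.61 in the same groups. All groups overlapped and limma adjusted p lay between 0.542 and 0.973 over both probe sets and all 3 comparisons.

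**Figure D2:**
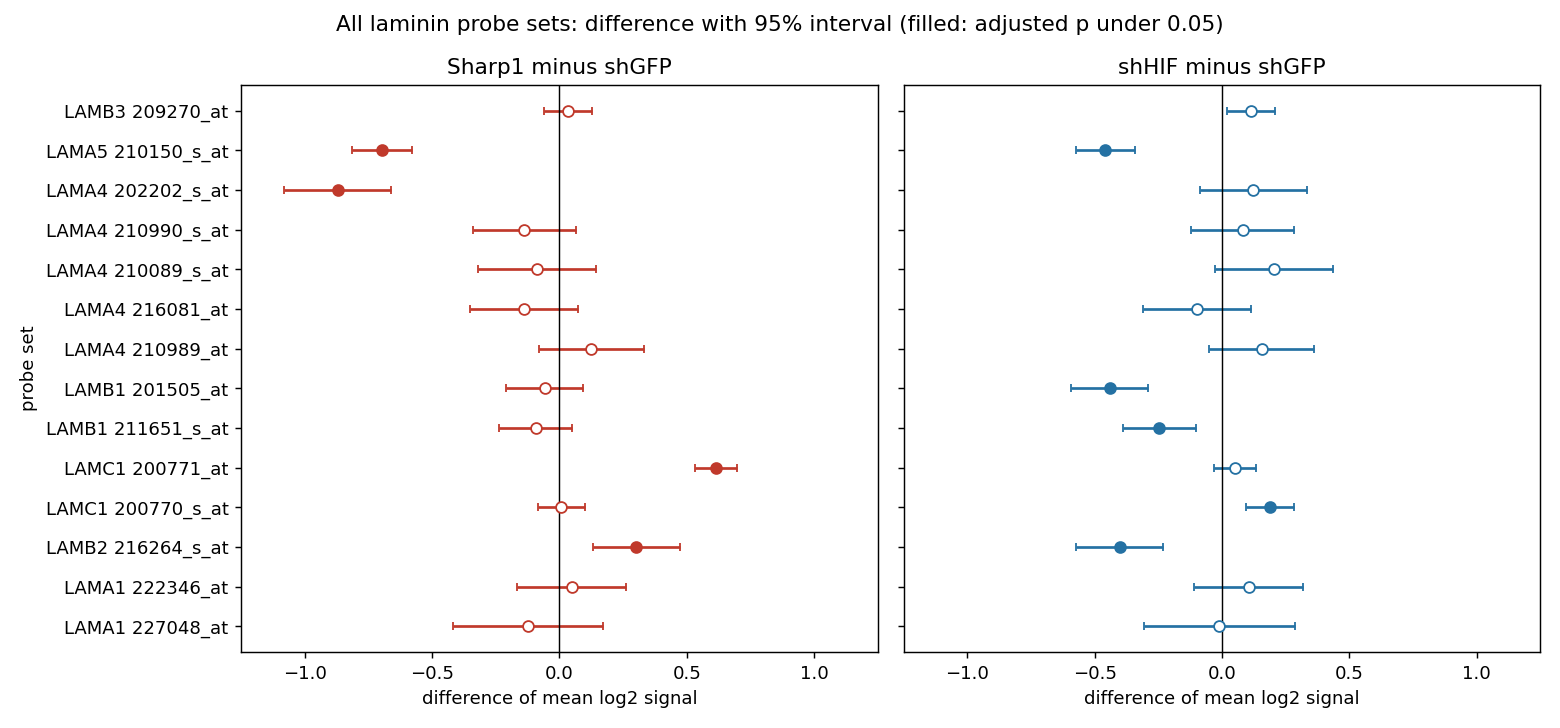
Difference of mean log2 signal (x axis) for each of the 14 laminin probe sets (y axis), for Sharp1 minus shGFP on the left and shHIF minus shGFP on the right, with 95% intervals from limma. Filled points passed an adjusted p of 0.05: 4 on the left, led by LAMA4 202202_s_at at -0.87, and 5 on the right, led by LAMA5 at -0.46.

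Read as 1 value per gene on the brightest probe set, 4 of the 7 genes were called in Sharp1 against shGFP cells (LAMA4 and LAMA5 lower, LAMC1 and LAMB2 higher), where 24.7% of 19775 genes were called (14.0% higher and 10.7% lower). In shHIF against shGFP cells 3 were called, all lower (LAMA5, LAMB1 and LAMB2), where 28.3% of genes were called (16.0% higher and 12.3% lower). In Sharp1 against shHIF cells 5 of the 7 were called, where 36.1% of genes were (17.2% higher and 18.9% lower). By trimer, the laminin-411 and laminin-511 chains held the LAMA5 fall of both lines, the LAMA4 fall of Sharp1 cells and the LAMB1 fall of shHIF cells. They also held the LAMC1 rise of Sharp1 cells, seen on 200771_at but not on 200770_s_at. In shHIF cells LAMC1 was called higher by 0.19 on 200770_s_at (limma adjusted p = 0.00309) and was not called on 200771_at. LAMB3 of laminin-332, read on 1 probe set, held 0 calls in any of the 3 comparisons (limma, with 1 of 3 at an unadjusted p under 0.05).

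Array quality and markers moved with the groups in places, and their part in the results was not tested. The difference of actin 3′ and 5′ signal was 0.85 on Sharp1 C and 0.56 to 0.68 on the other Sharp1 arrays, and 0.94, 0.90, 0.91 and 0.62 on shHIF arrays A to D, against 0.59 to 0.74 on shGFP arrays. Mean spike-in signal was 10.39 and 10.45 on shHIF A and D, against 10.69 to 10.81 on shGFP arrays. Without shHIF A and D, LAMA5, LAMB1 201505_at and LAMB2 were called lower in shHIF cells and fell by 0.50, 0.37 and 0.32. Averaged over 6 luminal breast markers, arrays read 9.35 to 9.39 in Sharp1 cells, 9.65 to 9.76 in shHIF cells and 9.78 to 9.85 in shGFP cells. These markers did not move as a group. AGR2 read 6.39 in Sharp1, 9.77 in shHIF and 9.40 in shGFP cells, and KRT19 read 12.11, 10.60 and 11.73 in the same groups. KRT8 (11.70 and 11.59) and KRT18 (13.16 and 13.12) read higher in Sharp1 than in shGFP cells.

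Other laminin chains and the laminin-related netrin were read on their brightest probe sets. NTN4, a netrin that binds laminin gamma chains, rose in both lines. It read 10.29, 10.14, 10.12 and 10.13 in Sharp1 cells, 9.70, 9.78, 9.89 and 9.44 in shHIF cells and 8.83, 8.95, 8.79 and 8.89 in shGFP cells. The 3 groups did not overlap. The rise was 2.47-fold in Sharp1 cells (log2 1.31, SE 0.07, adjusted p = 9.21e-13), while shHIF cells gave 1.79-fold (log2 0.84, SE 0.07, adjusted p = 4.15e-09), and the lines differed by 0.47 (adjusted p = 1.21e-05). LAMA2, the alpha chain of muscle laminin, read 5.68 ± 0.22 in Sharp1 cells, 5.46 ± 0.14 in shHIF cells and 5.28 ± 0.13 in shGFP cells (SD, n = 4), near the median probe set. Its rise in Sharp1 cells was 0.40 (limma adjusted p = 0.0113), and its difference in shHIF cells was 0.18 (limma adjusted p = 0.283). LAMB4 and LAMC3 differed by 0.05 or less in size in either line and were not called.

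Of 12 laminin receptor genes, 10 had a probe set annotated to that gene alone. DAG1 and RPSA had none and were not analysed here. In Sharp1 cells 3 rose and 2 fell, where 24.7% of all genes were called, and in shHIF cells 1 rose and 6 fell, where 28.3% were. The median difference was 0.04 and -0.15, against -0.0018 and 0.05 over all genes. SDC1, a heparan sulphate syndecan, read 8.08, 8.13, 8.11 and 8.17 in Sharp1 cells, against 9.10, 9.20, 9.18 and 9.21 in shGFP cells, a fall of -1.05 (SE 0.05, adjusted p = 1.51e-13). The related SDC2 rose in Sharp1 cells by 0.64 (SE 0.05, adjusted p = 6.08e-10), with every array above those of shGFP cells.

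ITGB4, the integrin beta chain of hemidesmosomes and a laminin-332 receptor subunit, fell in both lines. It read 7.19, 7.30, 7.26 and 7.30 in Sharp1 cells, 6.71, 6.87, 6.73 and 6.98 in shHIF cells and 7.70, 7.51, 7.69 and 7.88 in shGFP cells. The 3 groups did not overlap. The fall was -0.43 in Sharp1 cells (SE 0.08, adjusted p = 0.000297), while shHIF cells gave -0.87 (SE 0.08, adjusted p = 1.96e-08). Sharp1 cells exceeded shHIF cells by 0.44 (adjusted p = 0.000158) on this probe set, while among its 5 probe sets 1 was called the other way in that direct comparison. ITGA6, the alpha partner of ITGB4, fell in shHIF cells by 0.62 (SE 0.07, adjusted p = 4.32e-07) and differed by 0.02 in Sharp1 cells (adjusted p = 0.926). ITGA7, a laminin receptor of muscle, rose in shHIF cells by 0.33 (adjusted p = 0.0235), with a shGFP mean of 5.44.

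Of 6 hemidesmosome genes, which include ITGA6, ITGB4 and CD151 of the receptor list, 5 had a probe set annotated to that gene alone. COL17A1 had none. In Sharp1 cells 2 rose and 2 fell, and in shHIF cells 1 rose and 2 fell, beside 24.7% and 28.3% of all genes called. CD151, a tetraspanin that binds laminin receptors, rose by 0.30 in Sharp1 cells (SE 0.06, adjusted p = 0.000281). DST, a linker to keratin filaments, rose by 0.20 in shHIF cells (SE 0.05, adjusted p = 0.00435) as read on the brightest of 10 probe sets. In all, 4 of them were called higher and 0 lower in shHIF cells, and 3 were called higher and 1 lower in Sharp1 cells.

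Of 14 basement membrane partners, 13 had a probe set annotated to that gene alone, and COL17A1 had none. In Sharp1 cells 7 rose and 2 fell, where 14.0% of all genes were called higher and 10.7% lower, and the median difference was 0.31 (all genes -0.0018). In shHIF cells 4 rose and 2 fell, where 16.0% were called higher and 12.3% lower, and the median was 0.08 (all genes 0.05). COL4A1, a chain of the type IV collagen network that lies beside the laminin network, read 10.65, 10.55, 10.62 and 10.64 in Sharp1 cells, 8.98, 8.95, 8.94 and 9.01 in shHIF cells and 9.53, 9.40, 9.45 and 9.57 in shGFP cells. The groups did not overlap, with Sharp1 cells highest and shHIF cells lowest. The rise in Sharp1 cells was 1.13 (SE 0.05, adjusted p = 1.12e-14). The fall in shHIF cells was -0.52 (SE 0.05, adjusted p = 1.77e-08).

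COL18A1, which yields endostatin, fell in Sharp1 cells by 0.73 (SE 0.07, adjusted p = 1.16e-08). COL4A6, another type IV chain, rose in shHIF cells by 2.21 (SE 0.12, adjusted p = 1.29e-12), with a shGFP mean of 3.79 that is below the median probe set. Of its 3 probe sets, 1 was called there. The nidogens NID1 and NID2, which link laminin to type IV collagen, read 5.47 and 3.55 in shGFP cells and were not called in either line.

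Of 9 proteases known to process laminins, 2 rose and 0 fell in Sharp1 cells, and 0 rose and 1 fell in shHIF cells, where 24.7% and 28.3% of all genes were called. PLAU, the urokinase that activates plasminogen, read 10.90, 10.95, 11.07 and 11.00 in shHIF cells, against 11.55, 11.55, 11.58 and 11.58 in shGFP cells. It fell there by 0.58 (SE 0.04, adjusted p = 8.78e-11). In Sharp1 cells TLL1, a metalloprotease related to BMP1, rose by 0.28 (adjusted p = 0.0209) at readings of 3.25 ± 0.13, against 2.97 ± 0.05 in shGFP cells (SD, n = 4).

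**Figure D3:**
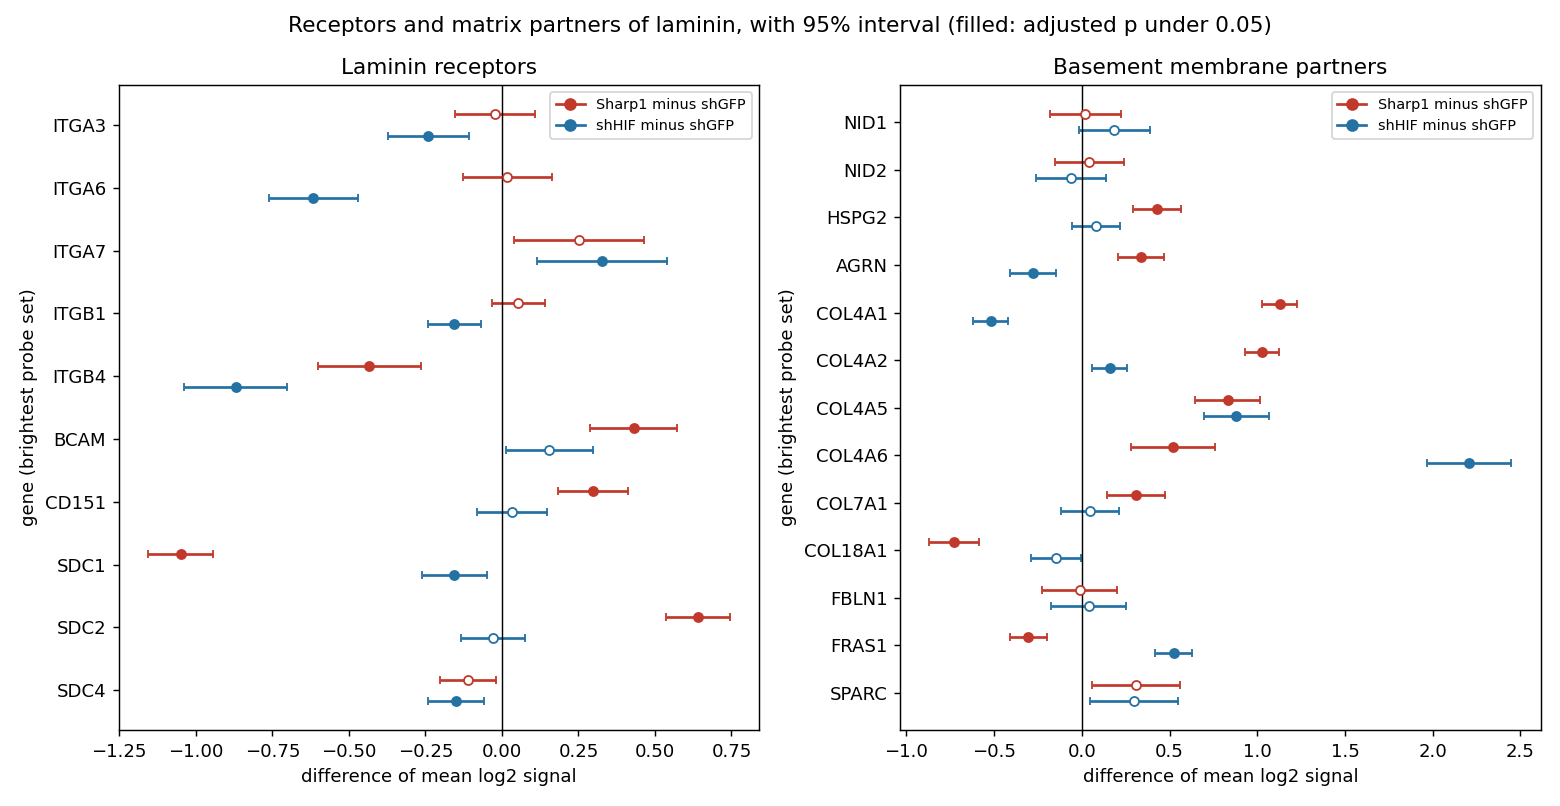
Difference of mean log2 signal (x axis) for laminin receptors on the left and basement membrane partners on the right (y axis, brightest probe set of each gene), with 95% intervals from limma. Red points are Sharp1 minus shGFP and blue points shHIF minus shGFP, and filled points passed an adjusted p of 0.05. COL4A1 lies at 1.13 in Sharp1 and -0.52 in shHIF cells, and SDC1 at -1.05 and -0.16.

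The genes most like LAMA4, LAMA5 and LAMC1, the laminins with the largest called differences from shGFP cells, across the 12 arrays were found by the root mean square difference of log2 values after each gene was centred on its mean, over 19775 genes on their brightest probe sets. For LAMA4 they were TCEAL8 (0.08) and CPNE8 (0.11), beside 0.46 for LAMA4 against its own mean. For LAMA5 they were EPS8L2 and PCYT2 (0.06 each, beside 0.30). For LAMC1 on 200771_at they were FNDC3B (0.04) and NAP1L3 (0.05, beside 0.28). FNDC3B differed by 0.60 in Sharp1 and 0.01 in shHIF cells from shGFP cells, and LAMC1 by 0.62 and 0.05.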

How the data were processed

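The authors deposited log2 expression values, 1 per probe set and array, made with RMA (background correction, normalization between arrays and summary per probe set), per the submitters' processing notes; no source used here gives its version. Total RNA was labelled with biotin, per the labels' protocols. Precision is limited by the number of arrays and, for dim probe sets, by background. Detection calls and scan dates were not used here.

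Of 54675 probe sets, 62 control probe sets were left out of the tests. Names came from GEO's annotation of the platform, in which 41091 tested probe sets had 1 gene symbol, 1801 several and 11721 none. Laminin chains were read on every probe set with that single symbol. Other genes were read on their brightest probe set with a single symbol (by its mean across the 12 arrays). In R 4.3.3, limma 3.58.1 fitted a mean per group to all 12 arrays, with eBayes and trend, and the Benjamini-Hochberg adjustment ran over 54613 probe sets in each comparison. Promoters came from RefSeq tables of GRCh38.p14.

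The members, lists and alternatives were chosen with earlier results of these data known. Named genes are all laminin chains, per list and comparison the called gene with the largest rise and fall, the targeted genes, and for the 3 laminins of largest change against shGFP the 2 most alike genes; NID1, NID2, EPCAM, PGR, CDH1, ESR1, ERBB3, AGR2, KRT8, KRT18 and KRT19 were named after their values were seen, as were the GC box and AP-1 motifs. Replicate letters did not pair the arrays: the correlation of deviations of same-lettered arrays lay between -0.157 and 0.130 and was over 0.1 in 1 of 12 pairs. On simulated data for Sharp1 against shGFP, over 54613 probe sets, 20% of 50 changes of 0.25, 76% of 50 changes of 0.5 and 100% of those of 1 or 2 were called, with 10 false calls. Far fewer probe sets were changed there than the 9875 called in the real comparison. The adjustment was therefore stricter in the simulation, and its rates do not give the recovery in these data. Alternatives were 1 probe set per gene, the mean of a gene's probe sets, centring, quantile normalization, leaving out dim probe sets, no trend, array weights, the compared groups alone, the replicate block, no shHIF A and D, and leaving out each array.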

Additional observations from a re-analysis of the deposited data

Results flagged for a closer look

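In groups of 4 arrays, 1 array stood far from the other 3 in 6 of 114 groups tested, where chance flags about 1 in 20. LAMA4 202202_s_at read 5.44 on Sharp1 C, against 5.24 to 5.27 on the other Sharp1 arrays. LAMA5 read 9.20 on shHIF D, against 9.04 to 9.05 on the other shHIF arrays, which is nearer to the shGFP level. LAMB1 211651_s_at read 7.70 on shHIF D, against 7.96 to 8.01, and the call of that probe set was lost without this array. NTN4 read 10.29 on Sharp1 A, against 10.12 to 10.14 on the other Sharp1 arrays. CD151 read 10.04 on Sharp1 C, against 9.89 to 9.90. EPAS1 read 4.19 on Sharp1 C on its dim probe set 200879_s_at, against 3.92 to 3.95.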

How the results depend on the processing

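Of 15 laminin differences called, 13 kept direction and call under every alternative, and the other two, LAMB2 in Sharp1 cells and LAMB1 211651_s_at in shHIF cells, lost the call in 2 alternatives each, as given above. No called difference changed sign. Counts of called laminin probe sets stayed within 1.5 times: without 1 array they were 3 to 4 in Sharp1 and 5 to 6 in shHIF against shGFP cells, and 6 to 8 in Sharp1 against shHIF cells. Under the replicate block they were 4, 5 and 7, with 17.3%, 21.2% and 28.2% of all probe sets called; LAMA4 210089_s_at was the added one (-0.29, adjusted p = 0.0458). Among 27 differences not called, 13 of 540 values passed under an alternative and 23 changed sign, all uncalled. For Sharp1 minus shGFP these were LAMC1 200770_s_at with quantile normalization (-0.0181) and in a range of -0.0095 to 0.0335 without 1 array, LAMA1 222346_at as the mean of its probe sets (-0.0373) and -0.0135 to 0.0912 without 1 array, and LAMA1 227048_at, -0.23 to 0.0483 without 1 array. For shHIF minus shGFP they were LAMA1 227048_at with array weights (0.0157), without shHIF A and D (0.0615) and -0.12 to 0.16 without 1 array, and, without shHIF A and D, LAMA4 210989_at (-0.023) and LAMA1 222346_at (-0.0045). For Sharp1 minus shHIF they were LAMA4 210989_at with array centring (0.0022), quantile normalization (0.0078), without shHIF A and D (0.15) and -0.11 to 0.0508 without 1 array, LAMA4 216081_at with quantile normalization (0.0048) and -0.10 to 0.0121 without 1 array, and LAMA1 222346_at without shHIF A and D (0.0529). The cause of these sign changes was not tested. Probe sets other than the brightest have no value with 1 probe set per gene or with gene means. With 4 arrays a group, changes near 0.25 were often missed in a simulation that held far fewer changes than the real data. Dim probe sets understate changes.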
